A study of Mus musculus with 96 samples.

Results

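The descending thin limb of a long loop of Henle was compared between its outer medullary part (DTL2) and its inner medullary part (DTL3) in mouse kidney. Samples were taken by their labelled segment alone, with no use of measured values: 7 DTL2 samples from 3 mice and 4 DTL3 samples from 3 mice, 11 of the 93 microdissected samples and 6 of the 53 mice. All animals in both groups were male C57BL/6 mice of 6 to 8 weeks on normal chow. No treatment and no transgene were named in the labels. The groups differ in labelled position along the limb, and each part came from separate mice. A sample is 1 dissected piece. DTL2 mice 1 and 2 gave 2 pieces each and mouse 3 gave 3, and DTL3 mice 1 and 2 gave 1 piece each and mouse 3 gave 2. Poly(A) RNA was amplified from very small inputs and sequenced, and abundance is in TPM, a share of the sample's transcript total, which is corrected for transcript length and keeps no record of depth. The other 13 groups, the glomerulus and the remaining tubule segments, entered the same statistical fit. Values are given for single pieces or as the mean ± SD over mice (n = 3 in DTL2, DTL3, DTL1, PTS3 and IMCD and n = 4 in ATL), after pieces of 1 mouse were averaged.

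In the long loop, filtrate leaves the proximal straight tubule, runs down through the outer and inner medulla in the descending thin limb, turns at the papilla and returns in the thin and then the thick ascending limb. The descending limb is known for high water permeability through the aquaporin-1 channel, and interstitial osmolality rises from the outer medulla toward the papillary tip, so the inner medullary part lies in the saltier and less oxygenated tissue. The descending limb of short loops (DTL1) and the thin ascending limb (ATL) are different segments and served as neighbours, with the last proximal segment (PTS3) and the inner medullary collecting duct (IMCD).

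Per sample, DTL2 held 17220 to 21878 genes at 1 TPM or more (median 20473) and DTL3 held 22250 to 24500 (median 22823.5). Odorant and vomeronasal receptor genes at 1 TPM or more, which the kidney has little known use for, numbered 95 to 359 in DTL2 (median 276) and 387 to 500 in DTL3 (median 407). The detection of low genes therefore moved with the comparison, and its part in the results was not tested. In bulk pieces, fewer cells of a type and less RNA per cell cannot be told apart. The segment label was checked against Aqp1, the water channel of the descending limb. Its TPM in the 7 DTL2 samples had a lowest, median and highest value of 5438, 6373 and 8397 TPM, and the DTL3 samples of mouse 1, mouse 2 and the pieces of mouse 3 stood at 12081, 11152, 11954 and 11462 TPM (the order used for DTL3 throughout). Both groups were far above IMCD, at 0.847 ± 1.05 TPM, and ATL, at 0.427 ± 0.465 TPM. The short-loop marker Corin, a serine protease gene, was 0.633 ± 0.363 TPM in DTL2 and 0.777 ± 0.45 TPM in DTL3 against 883 ± 364 TPM in DTL1. Of the 3 short-loop transcripts listed, 1 was called higher in DTL3 and 0 in DTL2, the called gene being Slc14a2, whose call ended without DTL3 mouse 1 (log2 difference 0.56, adjusted p 0.285) or DTL2 mouse 2 (adjusted p 0.0509).

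Of 33793 genes tested with limma, 3237 differed between DTL2 and DTL3 (9.58%), where a difference means an adjusted p under 0.05 and at least 1 log2 unit of log2(TPM + 1). Higher in DTL2 were 1182 genes (3.5%) and higher in DTL3 were 2055 (6.08%). Counts of called genes in the lists below are to be read against these shares. Log2 differences here are DTL3 minus DTL2, so negative values mark genes higher in DTL2, and they understate the change of low genes. Of all genes tested, 52.9% were annotated as protein-coding and 855 were odorant or vomeronasal receptor genes. Of the genes higher in DTL2, 84.0% were protein-coding and 0 were receptor genes. Of those higher in DTL3, 52.5% were protein-coding, near the share of all genes tested, and 20 were receptor genes. Among genes reaching 10 TPM in the higher group the counts were nearer, with 843 higher in DTL2 and 896 higher in DTL3. The median of all log2 differences was 0.20, and it was 0.10 after median ratio rescaling and 0.02 after quantile normalization, so single values are to be read against that shift. The share of calls higher in DTL3 was 63.5%, against 49.1% after median ratio rescaling, 43.3% after quantile normalization, 72.5% with a pseudocount of 0.1 and 49.3% with a pseudocount of 5. Differences of 5 log2 units or more were found for 33 genes higher in DTL2 and 17 higher in DTL3. The mice of the parts did not overlap in 1122 of the 1182 genes called higher in DTL2 and in 1752 of the 2055 called higher in DTL3. Separation of a called gene below is to be read against these counts.

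Among genes taken by the naming rule, the largest difference toward the outer medullary part was that of Car14, followed by Fst and Spp1. Separation of the 3 mice of each part was a condition for naming the 15 leading genes in each direction, so it is no added support for them. Car14, which encodes a membrane-bound carbonic anhydrase with its active site outside the cell, had a lowest, median and highest value of 1007, 2335 and 2634 TPM over the 7 DTL2 samples and 0, 0, 1.67 and 0.69 TPM in DTL3. Fst, encoding follistatin, the secreted protein that binds and blocks activins, was at 1708, 3026 and 3271 TPM in DTL2 and 1.59, 4.22, 5.65 and 1.38 TPM in DTL3. In both genes every DTL2 sample lay far above every DTL3 sample. The log2 difference was -10.55 for Car14 (SE 0.42, adjusted p 1.75e-23) and -9.49 for Fst (SE 0.39, adjusted p 4.43e-23). Spp1, the gene of the secreted phosphoprotein osteopontin, was one of the most abundant transcripts of DTL2, at 20369, 25930.1 and 32696 TPM. It was 264, 25, 134 and 80.1 TPM in DTL3, and DTL3 mouse 1 was the highest of these 4 samples and mouse 2 the lowest (log2 difference -8.18, SE 0.56, adjusted p 1.38e-15).

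Other genes of this group covered secreted proteins, transporters and enzymes. Agt, the angiotensinogen gene and source of angiotensin peptides, was at 482, 570.1 and 783 TPM in DTL2 against 12.1, 0.52, 6.86 and 6.92 TPM in DTL3 (log2 difference -6.85, SE 0.35, adjusted p 4.42e-20). Pcolce, whose product enhances cleavage of procollagen, went from 594 ± 73.7 to 4.05 ± 2.17 TPM, a mean 147-fold lower. Fgf1, an acidic fibroblast growth factor gene, went from 376 ± 72.4 to 3.94 ± 2.44 TPM. The transcript of Lypd2, a small GPI-anchored surface protein, stood at 3188 to 7192 TPM in DTL2 and 8.51 to 85.4 TPM in DTL3, again with no overlap. Aldh1l1, a folate enzyme gene, Stk32a, a kinase gene, and Tmem213, a membrane protein gene, had log2 differences of -6.28, -6.15 and -6.95. The 15 largest differences by the naming rule also held Slc9a3 and Cldn2, described with transport below, Ppp1r1a, and the microRNA genes Mir568 and Mir678, both listed at 0 in all 4 DTL3 samples. Mir568 was 0 to 579 TPM and Mir678 0 to 394 TPM in DTL2. TPM of such short genes in a poly(A) library come from reads placed on the hairpin and not from the mature microRNA, and the library kit does not mark strand.

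By the same rule the largest differences toward DTL3 were those of Fxyd4, Cldn4 and Nr2e3. Fxyd4, which encodes a small regulator of the sodium pump best known from collecting duct, was 4.87, 12.8 and 24.1 TPM in DTL2 and 1477, 1839, 1826 and 1875 TPM in DTL3. Nr2e3, an orphan nuclear receptor gene best known from photoreceptors, was at 1.54, 2.22 and 61.9 TPM in DTL2 and 1104, 399.9, 810.3 and 799 TPM in DTL3. The DTL2 samples were uneven for Nr2e3, with 1 piece of mouse 1 at the highest value, yet none reached the lowest DTL3 sample. Cldn4, a claudin of tight junctions, was at 0, 0 and 8.69 TPM in DTL2 and 166, 281, 184 and 183 TPM in DTL3, with at least 4 of 7 DTL2 samples at 0. The log2 differences were 6.93 (SE 0.51, adjusted p 1.64e-14), 6.77 (SE 0.52, adjusted p 6.47e-14) and 6.82 (SE 0.29, adjusted p 1.73e-22).

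Receptor and enzyme genes followed. Epor, the erythropoietin receptor gene, was 0 to 4.56 TPM in DTL2 and 167, 181, 235 and 255 TPM in DTL3 (log2 difference 6.58, SE 0.41, adjusted p 4.78e-17). Cpm, a membrane carboxypeptidase gene, was 1.48 to 19.4 TPM in DTL2 and 438, 389, 450.1 and 497 TPM in DTL3 (log2 difference 6.07, SE 0.38, adjusted p 5.81e-17). Dmkn, encoding the secreted epithelial protein dermokine, rose from 1.47 ± 0.689 to 128 ± 16.2 TPM and Muc20, a membrane mucin gene, from 1.14 ± 1.17 to 99.9 ± 14.4 TPM. In none of these genes did a DTL2 sample reach a DTL3 sample. Kirrel3, Fcgbp, Rasal1 and Plpp4 differed by 5.39, 5.36, 5.34 and 5.07 log2 units, encoding in turn an immunoglobulin-family adhesion protein, an IgG-Fc-binding mucus protein, a Ras GTPase-activating protein and a lipid phosphatase. The protein phosphatase 1 inhibitor genes Ppp1r1a and Ppp1r1b were exchanged along the limb. Ppp1r1a fell from 326 ± 120.1 to 1.52 ± 1.01 TPM (log2 difference -6.99), while Ppp1r1b, known as DARPP-32, went from 14.1 ± 8.96 to 399 ± 67.4 TPM (log2 difference 5.04). Igkc, an immunoglobulin light chain constant gene, was 0 to 13.6 TPM in DTL2 and 405, 72.6, 175 and 217 TPM in DTL3. The short genes Mir1195 and Snora28 completed the 15, both listed at 0 in all 7 DTL2 samples, and Mir1195 was also at 0 in 1 piece of DTL3 mouse 3.

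**Figure D1:**
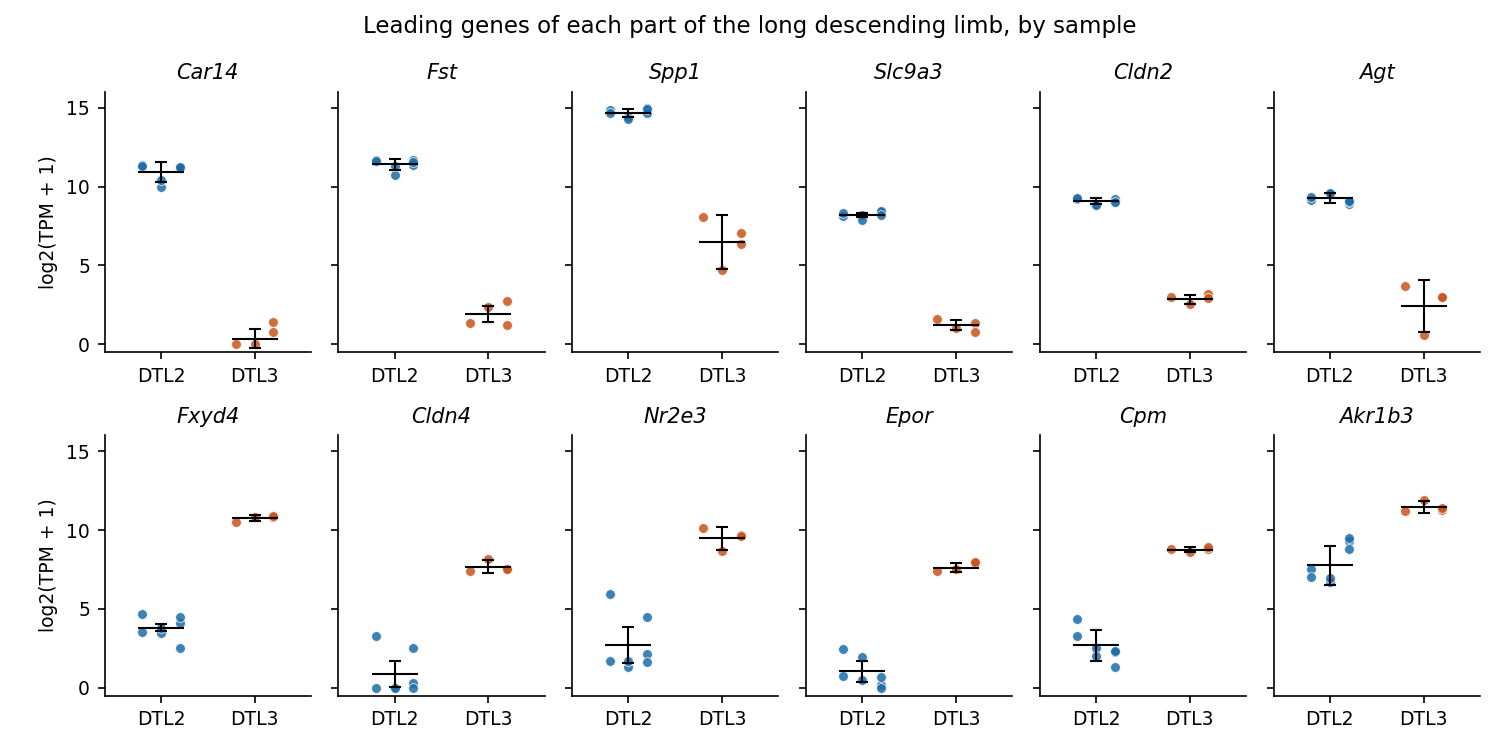
Abundance as log2(TPM + 1) (vertical axis) of 6 genes higher in DTL2 (upper row) and 6 higher in DTL3 (lower row). Each point is 1 dissected sample, blue for DTL2 and orange for DTL3, set left to right by mouse 1, 2 and 3 within a group, and the black bar and whiskers are the mean and SD over 3 mice; the groups do not overlap in any panel, which the naming rule asked of the mice for all but Akr1b3.

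Levels in the neighbouring segments divided these genes further. All contrasts with neighbours share the DTL2 or DTL3 samples with the main comparison, so their values are set side by side and not counted as separate evidence. The test called 2.99% of genes higher in DTL2 than in DTL1, 36.2% higher in DTL2 than in PTS3, 11.8% higher in DTL3 than in ATL and 26.7% higher in DTL3 than in IMCD. Car14 had means of 0 ± 0 in PTS3 and 1.25 ± 1.87 in DTL1, in TPM, both under its DTL2 level (DTL2 minus DTL1 10.05, SE 0.42, adjusted p 6.13e-23). Agt and Cldn2 were already at 217 ± 34.4 and 254 ± 47.3 TPM in PTS3, the segment that precedes DTL2 in the loop. DTL2 exceeded PTS3 by 1.53 log2 units for Agt (SE 0.35, adjusted p 0.000237) and by 1.11 for Cldn2 (SE 0.37, adjusted p 0.00956). Lypd2 was high again in ATL, at 5494 ± 2003 TPM, after its low level in DTL3.

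Among DTL3 genes, one set was shared with the collecting duct and another was not. Fxyd4 was 3108 ± 2843 TPM in IMCD (DTL3 minus IMCD -0.35, SE 0.51, adjusted p 0.588), and Epor was 348 ± 42.7 TPM there (DTL3 minus IMCD -0.82, SE 0.41, adjusted p 0.09). Muc20 was far higher in IMCD, at 3062 ± 482 TPM. By contrast Nr2e3 was 0.284 ± 0.185 TPM in IMCD, Cpm 2.95 ± 1.32 TPM, Dmkn 3.31 ± 1.1 TPM and Ppp1r1b 0.323 ± 0.147 TPM. The DTL3 minus IMCD difference was 9.17 log2 units for Nr2e3 (SE 0.52, adjusted p 7.7e-19) and 6.87 for Cpm (SE 0.38, adjusted p 2.44e-19). The same genes were at 4.46 ± 8.1 TPM (Nr2e3), 20.2 ± 5.8 TPM (Cpm) and 1.13 ± 0.948 TPM (Dmkn) in ATL, the segment after DTL3. Of the 10 principal cell transcripts listed, 3 were called higher in DTL3 and 0 in DTL2, and the 10 summed to 9.70 to 27.1 TPM in DTL2 and 1497.5 to 1915.2 TPM in DTL3, nearly all of it Fxyd4. Aqp2, the vasopressin-regulated water channel of principal cells, was 5.61, 18.7, 9.44 and 18.2 TPM in the DTL3 samples against 27393 ± 2113 TPM in IMCD. Avpr2, the vasopressin V2 receptor gene, was 11.7, 22.2, 12.4 and 17.5 TPM against 1011 ± 286 TPM. Scnn1g, Gata3 and Elf5, which also mark principal cells, had means of 0.205, 1.53 and 0.992 TPM in DTL3. Of the 5 IMCD transcripts, 2 were called higher in DTL3 (Aqp2 and Slc14a2, the second not without DTL3 mouse 1 or DTL2 mouse 2), and the 7 intercalated cell transcripts gave 0 calls in either direction by limma (1 higher in DTL3 without DTL3 mouse 1), with summed TPM of 0.45 to 2.70 in DTL2 and 1.76 to 3.32 in DTL3. The part of collecting duct RNA in the Fxyd4 and Epor levels was not tested.

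**Figure D2:**
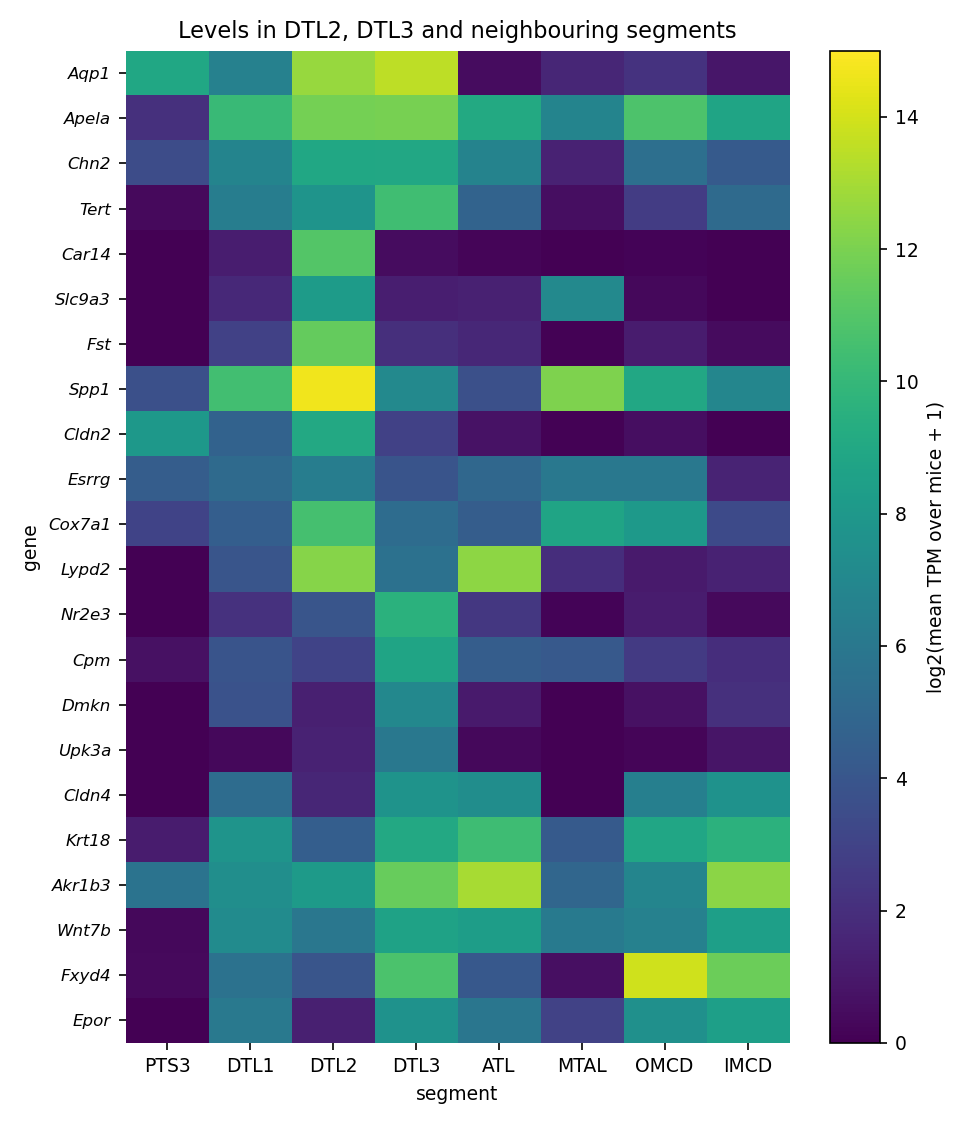
Mean abundance as log2(TPM + 1) (colour scale) of 22 named genes (rows) in DTL2, DTL3 and neighbouring segments (columns). The rows run from genes high in both parts of the long limb through genes of DTL2 to genes of DTL3, of which Nr2e3, Cpm, Dmkn and Upk3a have their highest level in DTL3 and Fxyd4 and Epor are also high in OMCD and IMCD, the outer and inner medullary collecting ducts.

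Against these differences stood a set of genes that both parts of the long limb shared. In DTL2 and in DTL3 alike, 23 genes passed a margin of 1 log2 unit over every one of the remaining 13 groups (0.0681% of genes tested, intersection-union test over 26 contrasts). The count was lower with a pseudocount of 0.1 and after median ratio rescaling, as given in the closing section. Aqp1 stood among the widest margins of the 23 genes, 3.66 log2 units above PTS2 (SE 0.46, adjusted p 6.91e-06). Its own difference between DTL3 and DTL2 did not pass (log2 difference 0.84, SE 0.51, adjusted p 0.269), although Aqp1 was higher in every DTL3 sample. That SE pools the spread of mice over all 15 groups, while the means were 6582 ± 465 TPM in DTL2 and 11647 ± 467 TPM in DTL3. Hnmt, the histamine-methylating enzyme gene, was 354 ± 49.7 and 347 ± 76.5 TPM. Chn2, a Rac GTPase-activating protein gene, was 487 ± 17.8 and 504 ± 91 TPM, and Frzb, encoding a secreted Wnt-binding protein, 263 ± 15.2 and 274 ± 30.6 TPM. For these 3 genes the difference between the parts was at most 0.07 log2 units in size with SE of 0.25 to 0.43, and samples of the parts overlapped in all 3.

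Some shared genes still had a gradient along the limb. Slc4a11, a borate-transporter-like membrane protein gene that carries protons or ammonia, was 2226, 2502 and 2918 TPM in DTL2 and 885, 849, 1060.2 and 1042 TPM in DTL3 (log2 difference -1.44, SE 0.41, adjusted p 0.00989); its call ended after quantile normalization. Cntf, the ciliary neurotrophic factor gene, was 351 ± 78.3 TPM in DTL2 and 107, 11.1, 90.9 and 40.9 TPM in DTL3, with mouse 2 the lowest. Podn, a matrix proteoglycan gene, went the other way, from 87.7 ± 31.9 to 251 ± 30.8 TPM (log2 difference 1.58, SE 0.23, adjusted p 1.36e-06). Plk5, a polo-like kinase gene, and Tbpl2, a TATA-binding protein homologue, were also among the 10 widest margins by the naming rule. Plk5 ranged from 9.74 to 131 TPM over DTL2 samples, and its higher call in DTL3 was lost without DTL2 mouse 2 (log2 difference 0.30, adjusted p 0.465) or DTL3 mouse 1 (adjusted p 0.0812), and its difference was 1.74 without DTL2 mouse 3. Osr2, a zinc-finger transcription factor gene on the transcription factor list, was also among the 23 and rose from 249.6 ± 50.8 to 569 ± 97.2 TPM. Outside the naming rule, and chosen after their values were seen, were Tert and Apela. Tert, the reverse transcriptase subunit of telomerase, was 175, 222 and 283 TPM in DTL2 and 1549, 1131, 1325 and 1368 TPM in DTL3 (log2 difference 2.61, SE 0.26, adjusted p 1.61e-10), against 80.9 ± 18.2 TPM in DTL1 and 0.325 ± 0.554 TPM in PTS3. Apela, encoding a peptide ligand of the apelin receptor, was 3722 ± 615 and 3932 ± 491 TPM (log2 difference 0.09, SE 0.23, adjusted p 0.844).

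Solute and water transport genes changed as a few large steps. Of 12 aquaporin and urea transporter genes tested, 3 were higher in DTL3 and 1 in DTL2, and only Aqp1 was abundant; without DTL3 mouse 1 the first count was 1. The urea transporter gene Slc14a1 was 0.492 ± 0.32 TPM in DTL2 and 0.31 ± 0.0954 TPM in DTL3. Of 29 sodium, chloride and proton transporter and channel genes, 5 were higher in DTL2 and 1 in DTL3. The shares of all genes tested were 3.5% and 6.08%. The DTL3 count was 2 without DTL2 mouse 3 or DTL3 mouse 1, and 0 after quantile normalization. Slc9a3, encoding the apical sodium-proton exchanger NHE3, was 237, 293 and 344 TPM in DTL2 and 2.0, 1.08, 1.5 and 0.70 TPM in DTL3 (log2 difference -6.97, SE 0.33, adjusted p 6.4e-21). Psca, the leading ATL transcript, was 26.2 ± 7.82 and 2.1 ± 1.52 TPM here and 13757 ± 3153 TPM in ATL, and of 5 ATL transcripts 2, Psca among them, were higher in DTL2 and 0 in DTL3, with summed TPM of 131.9 to 228.9 and 5.99 to 11.8. Cldn10, another ATL gene at 3517 ± 541 TPM there, was 3.72 ± 2.21 TPM in DTL2, and the part of ATL RNA in the DTL2 levels was not tested.

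Among acid-base genes Car14 had by far the largest difference, and the next, among genes reaching 10 TPM in either part, was that of Car2, also higher in DTL2. Of 32 carbonic anhydrase and bicarbonate transporter genes, 5 were higher in DTL2 and 4 in DTL3. Car2, the cytosolic carbonic anhydrase II gene, was 266, 293 and 307 TPM in DTL2 and 70.7, 34.6, 48.4 and 55.9 TPM in DTL3 (log2 difference -2.50, SE 0.18, adjusted p 1.18e-14). With Car14, Car2 and Slc4a11 the list held Slc4a3, an anion exchanger gene, at 17.7 ± 2.5 and 4.58 ± 1.3 TPM. Car5b, a mitochondrial carbonic anhydrase gene, and Slc4a7, a sodium-bicarbonate cotransporter gene, were higher in DTL3, at 41.8 ± 6.76 and 102 ± 12.3 TPM and at 7.5 ± 0.765 and 24.4 ± 8.87 TPM. The 32 genes together summed to 4091.8 to 6068.5 TPM in DTL2 and 1213.4 to 1429.8 TPM in DTL3.

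Among sodium pump genes the call was that of a regulator. Of 13 pump and FXYD genes 1 was called higher in DTL3, Fxyd4, and 0 in DTL2 by limma (1, without DTL2 mouse 2 or without DTL3 mouse 2, and 2 at an unadjusted p under 0.05). Of all genes tested, 31.1% passed that unadjusted limit, 8.63% higher in DTL2 and 22.5% higher in DTL3, and each count at it given here is to be read against those shares. Atp1b1, the beta subunit gene, was 1940.2 ± 157 TPM in DTL2 and 1127 ± 72 TPM in DTL3, under the limit of 1 log2 unit (log2 difference -0.78, SE 0.16, adjusted p 0.000198). Fxyd2, the gamma subunit gene, stayed abundant in both, at 8060.1 ± 125 and 6946 ± 452 TPM (log2 difference -0.21, SE 0.20, adjusted p 0.508). Among 28 potassium channel genes, 2 were higher in DTL3 and 1 in DTL2, near the shares of all genes tested (6.08% and 3.5%). Kcnj16, an inward rectifier gene, was 309 ± 90.4 and 60.6 ± 5.23 TPM. Kcnq1, a voltage-gated channel gene, was 5.67 ± 2.08 and 25.3 ± 13.1 TPM, and the second DTL3 gene (Kcne3, under 10 TPM) lost its call without any of DTL2 mice 1 and 3 and DTL3 mice 1 and 3.

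Of 27 tight junction genes tested, 4 were higher in DTL3 and 2 in DTL2, and 21 were not called (list median -0.04). Cldn2, whose claudin forms cation- and water-permeable paracellular pores, was 456, 528 and 628 TPM in DTL2 and 6.94, 4.77, 8.06 and 6.8 TPM in DTL3 (log2 difference -6.20, SE 0.37, adjusted p 8.6e-18). Claudin-4 and claudin-8, by contrast, are known from tight distal epithelia. Cldn8 was 49.4, 75 and 229 TPM in DTL2 and 1196, 1289, 1299 and 1405 TPM in DTL3 (log2 difference 3.54, SE 0.29, adjusted p 4.98e-13), and Cldn4 is given above. Cldn3 rose from 5.6 ± 3.46 to 27.2 ± 4.86 TPM, and Tjp3, a scaffold of the junction plaque, from 16.2 ± 5.67 to 89.3 ± 12.4 TPM. F11r, the junctional adhesion molecule gene, was lower in DTL3 (log2 difference -1.14, SE 0.21, adjusted p 8.22e-05), a call that ended without DTL3 mouse 2 (log2 difference -0.96). Cldn7 was 188 ± 58.1 and 269.6 ± 47.8 TPM and did not pass (log2 difference 0.55, adjusted p 0.0687).

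Cells in a salty interstitium hold organic osmolytes and chaperones. Of 21 genes of the osmolyte and hypertonic response list, 6 were higher in DTL3 and 3 in DTL2, and the list's median difference was 0.24 against 0.20 for all genes. Akr1b3, the aldose reductase gene that makes sorbitol, was 103, 181 and 709 TPM in DTL2 and 2352, 3878, 2455 and 2691 TPM in DTL3. All 3 high DTL2 values were pieces of mouse 3, and all DTL2 samples stayed under DTL3 (log2 difference 3.72, SE 0.29, adjusted p 6.18e-14). Cryab, the small heat shock protein alpha-B-crystallin, was 2386, 3051 and 3638 TPM in DTL2 and 9674, 15189, 10916 and 11180.1 TPM in DTL3 (log2 difference 2.03, SE 0.23, adjusted p 3.71e-09). Sord, which converts sorbitol to fructose, changed the other way, from 45.6 ± 8.12 to 3.57 ± 1.95 TPM (log2 difference -3.36, SE 0.29, adjusted p 2.24e-12). Slc6a9, a glycine transporter gene, Pnpla6, a phospholipase gene that can yield glycerophosphocholine, and Hsp90aa1, a chaperone gene, were 1.80, 1.77 and 1.51 log2 units higher in DTL3. Hspb1, another small heat shock protein gene, was lower there, at 331 ± 45.7 and 99 ± 8.69 TPM. The carriers for betaine (Slc6a12), taurine (Slc6a6) and myo-inositol (Slc5a3) did not pass, with log2 differences of 0.85 for Slc6a12 (SE 0.51), -0.00 for Slc6a6 (SE 0.41) and -0.49 for Slc5a3 (SE 0.36), and the samples overlapped in all 3. Nfat5, the tonicity-responsive transcription factor gene, was 50.5 ± 6.95 and 82 ± 14.8 TPM (log2 difference 0.69, SE 0.18, adjusted p 0.00496), under 1 log2 unit. Ranbp3l and Slc38a2, the remaining called genes, depended on single mice, and Ranbp3l lost its call without DTL2 mouse 2 (adjusted p 0.133), Slc38a2 without DTL2 mouse 3 or DTL3 mouse 1.

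All called genes of mitochondrial energy metabolism were higher in the outer part. Of 22 genes of the tricarboxylic acid cycle and mitochondrial biogenesis tested, 12 were higher in DTL2 and 0 in DTL3 by limma (18 and 0 after median ratio rescaling, 16 and 0 after quantile normalization), with a median log2 difference of -1.07 against 0.20 for all genes. At an unadjusted p under 0.05, 19 were higher in DTL2 and 0 in DTL3, against 8.63% and 22.5% of all genes. Ppargc1a, the coactivator that drives mitochondrial biogenesis, was 181, 231 and 285 TPM in DTL2 and 40.7, 22.4, 36.2 and 34.9 TPM in DTL3. Esrra and Esrrg, the estrogen-related receptors through which it acts, went from 104 ± 23.4 to 21.2 ± 1.8 TPM and from 82.1 ± 17.9 to 13.6 ± 5.17 TPM. These 3 regulators fell by 2.80 (SE 0.22, adjusted p 7.27e-14), 2.22 (SE 0.17, adjusted p 6.13e-14) and 2.56 log2 units (SE 0.30, adjusted p 7.76e-09). Ppargc1b, the sister coactivator gene, was low in both, at 1.49 ± 0.772 and 1.4 ± 0.353 TPM. In the cycle itself Idh3a, a subunit of isocitrate dehydrogenase, was 524, 628 and 704 TPM in DTL2 and 98.5, 97.4, 106 and 116 TPM in DTL3 (log2 difference -2.57, SE 0.15, adjusted p 2.58e-18). Fh1, fumarase, and Sdhc, a subunit of succinate dehydrogenase, had log2 differences of -1.80 and -1.74. Mdh2, malate dehydrogenase, stood just under the limit, at -0.95 (adjusted p 0.000113), as did Cs, citrate synthase, at 338 ± 11.3 and 169 ± 3.39 TPM (adjusted p 7.72e-06).

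Respiratory chain genes were looked at after the data had been seen. Of 82 nuclear-encoded respiratory chain and ATP synthase subunit genes tested, 48 were higher in DTL2 and 0 in DTL3 by limma (54 and 0 after median ratio rescaling, 41 and 0 after quantile normalization), with a median of -1.10. Leaving out single mice gave 43 to 51 and 0, and an unadjusted p under 0.05, which 8.63% of all genes passed toward DTL2, gave 73 and 0. Cox7a1, the heart and muscle form of a cytochrome oxidase subunit, had by far the largest difference, from 1358, 1437 and 1999.7 TPM in DTL2 to 51.9, 31.1, 33 and 35.5 TPM in DTL3 (log2 difference -5.28, SE 0.37, adjusted p 3.53e-15). Cycs, cytochrome c, went from 495 ± 62.3 to 73.1 ± 10.0 TPM, Cox7b from 2252 ± 129.6 to 339 ± 73.8 TPM and Atp5g3, a subunit of the ATP synthase membrane ring, from 3018 ± 104 to 790.3 ± 165 TPM. Transcripts of the mitochondrial genome, also looked at after the data had been seen, were lower in DTL3 as well. Of 37 listed, 28 were at 0 in all 11 samples, mt-Co2, mt-Co3 and mt-Atp6 among them, so the sum is that of the other genes alone. They summed to 21075.3 to 28000.8 TPM in DTL2 samples and 9301.3 to 11427 TPM in DTL3 samples. Of 9 tested, 6 were higher in DTL2 and 0 in DTL3 (8 and 0 at the same unadjusted limit). The called counts were 8 and 0 after median ratio rescaling, and 5 and 0 after quantile normalization. mt-Nd1, a complex I subunit gene, was 6572 ± 264 TPM in DTL2 and 1878 ± 20.8 TPM in DTL3, both under the 33049 ± 5834 TPM of PTS3 (log2 difference -1.79, SE 0.27, adjusted p 2.3e-06). Since TPM are shares of a total, a lower mitochondrial sum raises all other genes, and the 3 scalings above give the list counts under different totals.

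**Figure D3:**
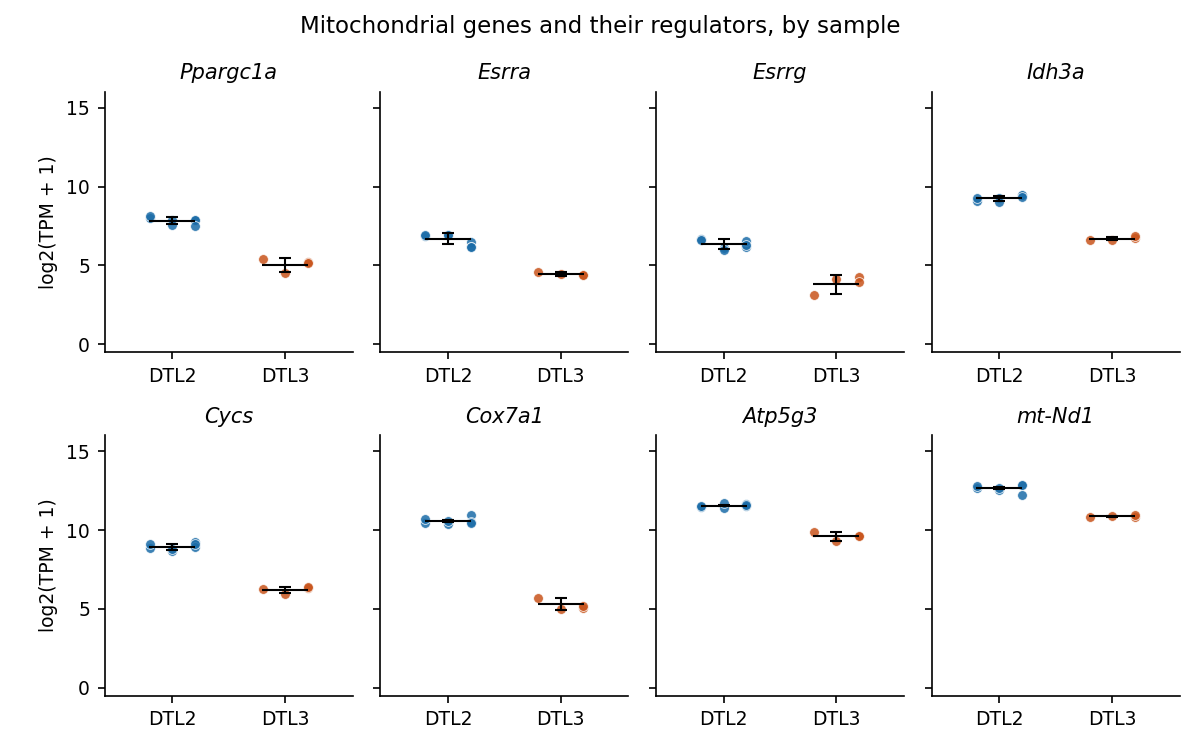
Abundance as log2(TPM + 1) (vertical axis) of a coactivator gene, the estrogen-related receptor genes, a cycle enzyme gene, respiratory chain genes and a gene of the mitochondrial genome. Points are samples by mouse, blue for DTL2 and orange for DTL3, with the mean and SD over 3 mice in black. In all 8 panels every DTL2 sample lies above every DTL3 sample, and the mice of most called genes separate in this way.

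Estrogen-related receptors are known activators of mitochondrial genes, so promoters of both nuclear lists were searched for the estrogen-related receptor response element, TNAAGGTCA on either strand, in 300 bases (250 before to 50 after the start site, RefSeq, GRCm38.p6). It was present in 1 of 18 promoters found for the tricarboxylic acid cycle and biogenesis list (5.56%), in 3 of 67 of the respiratory chain list (4.48%, Sdhd being on both lists) and in 387 of 27025 promoters of all genes (1.43%). The matches were Sdhd, which encodes a succinate dehydrogenase subunit and went from 745 ± 19.4 to 284 ± 39.5 TPM, Atp5g3, and Ndufb4, a complex I subunit gene that was not called (log2 difference -0.67, adjusted p 0.000991). The sequences of the called genes are shown 5′ to 3′ in the direction of the gene with the element in capitals, here as its reverse complement. The Sdhd window is chr9:50603800-50604099 and the Atp5g3 window chr2:73911277-73911576, both on the minus strand.
Sdhd: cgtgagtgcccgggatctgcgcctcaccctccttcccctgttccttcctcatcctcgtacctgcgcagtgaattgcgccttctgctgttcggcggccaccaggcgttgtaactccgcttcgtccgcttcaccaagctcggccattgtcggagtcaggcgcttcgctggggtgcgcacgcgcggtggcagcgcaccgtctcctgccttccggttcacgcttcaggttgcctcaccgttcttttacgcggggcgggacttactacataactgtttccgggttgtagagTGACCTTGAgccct
Atp5g3: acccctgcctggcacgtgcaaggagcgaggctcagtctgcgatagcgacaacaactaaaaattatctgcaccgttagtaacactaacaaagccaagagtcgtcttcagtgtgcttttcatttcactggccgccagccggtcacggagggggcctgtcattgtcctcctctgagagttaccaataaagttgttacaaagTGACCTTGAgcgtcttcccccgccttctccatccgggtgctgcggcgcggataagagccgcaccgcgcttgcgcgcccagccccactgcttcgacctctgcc
In Sdhd the element begins 36 bases after the start site and in Atp5g3 52 bases before it. A match of letters is not a site of binding, and most genes that fell in these lists had none in this window.

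Of 23 glycolysis genes tested, 5 were higher in DTL2, 3 were higher in DTL3 and 15 were not called. Ldhb, the lactate dehydrogenase subunit common in oxidative tissue, was 794, 1004 and 1112 TPM in DTL2 and 157, 119, 127 and 142 TPM in DTL3 (log2 difference -2.84, SE 0.18, adjusted p 1.97e-16), while Ldha, its counterpart, stayed under 1 log2 unit (log2 difference 0.60, adjusted p 0.00267). Slc16a1 and Slc16a3 encode the monocarboxylate transporters MCT1 and MCT4, of which the second is known for lactate export from glycolytic cells. Slc16a1 fell from 25.5 ± 9.53 to 4.42 ± 2.52 TPM, and Slc16a3 rose from 4.87 ± 1.34 to 30.6 ± 6.01 TPM (log2 difference 2.51, SE 0.34, adjusted p 2.03e-07). Of the early-step enzymes, Hk1, Pfkp and Pfkm were lower in DTL3 by log2 differences of -1.61, -2.22 and -1.29, while Pfkfb3, which makes an activator of phosphofructokinase, was 30.1 ± 7.4 and 150.1 ± 88.6 TPM and higher in DTL3 (log2 difference 2.16, SE 0.35, adjusted p 8.25e-06). The remaining phosphofructokinase gene, Pfkl, was higher in DTL3, at 141 ± 8.24 and 284 ± 19.7 TPM (log2 difference 1.01, SE 0.18, adjusted p 3.62e-05), a call that ended without DTL2 mouse 3 (log2 difference 0.96) or DTL3 mouse 1 (log2 difference 0.95).

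Of 23 hypoxia response genes, 6 were higher in DTL3 and 1 in DTL2 (4 and 1 after median ratio rescaling), with a median of 0.33. Ddit4, a hypoxia- and stress-induced inhibitor of mTORC1, was 1.58, 2.1 and 3.58 TPM in DTL2 and 20.9, 44.5, 15.8 and 13.8 TPM in DTL3, with mouse 2 the highest (log2 difference 2.91, SE 0.43, adjusted p 1.28e-06). Ankrd37, a known target of hypoxia-inducible factor, rose from 23.2 ± 14.3 to 71.6 ± 12.1 TPM and P4ha2, a collagen hydroxylase gene, from 46.1 ± 11.3 to 105 ± 13.1 TPM. Egln3 and Vhl, which take part in degrading the factor, were called but not without DTL2 mouse 3 (adjusted p 0.0775 for Egln3 and a difference of 0.93 for Vhl). Epas1, the HIF-2 alpha gene, was lower in DTL3, at 10.5 ± 0.468 and 4.08 ± 1.04 TPM. Hif1a was 302 ± 137 and 482 ± 86 TPM and stayed under 1 log2 unit (log2 difference 0.76, adjusted p 0.0109).

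**Figure D4:**
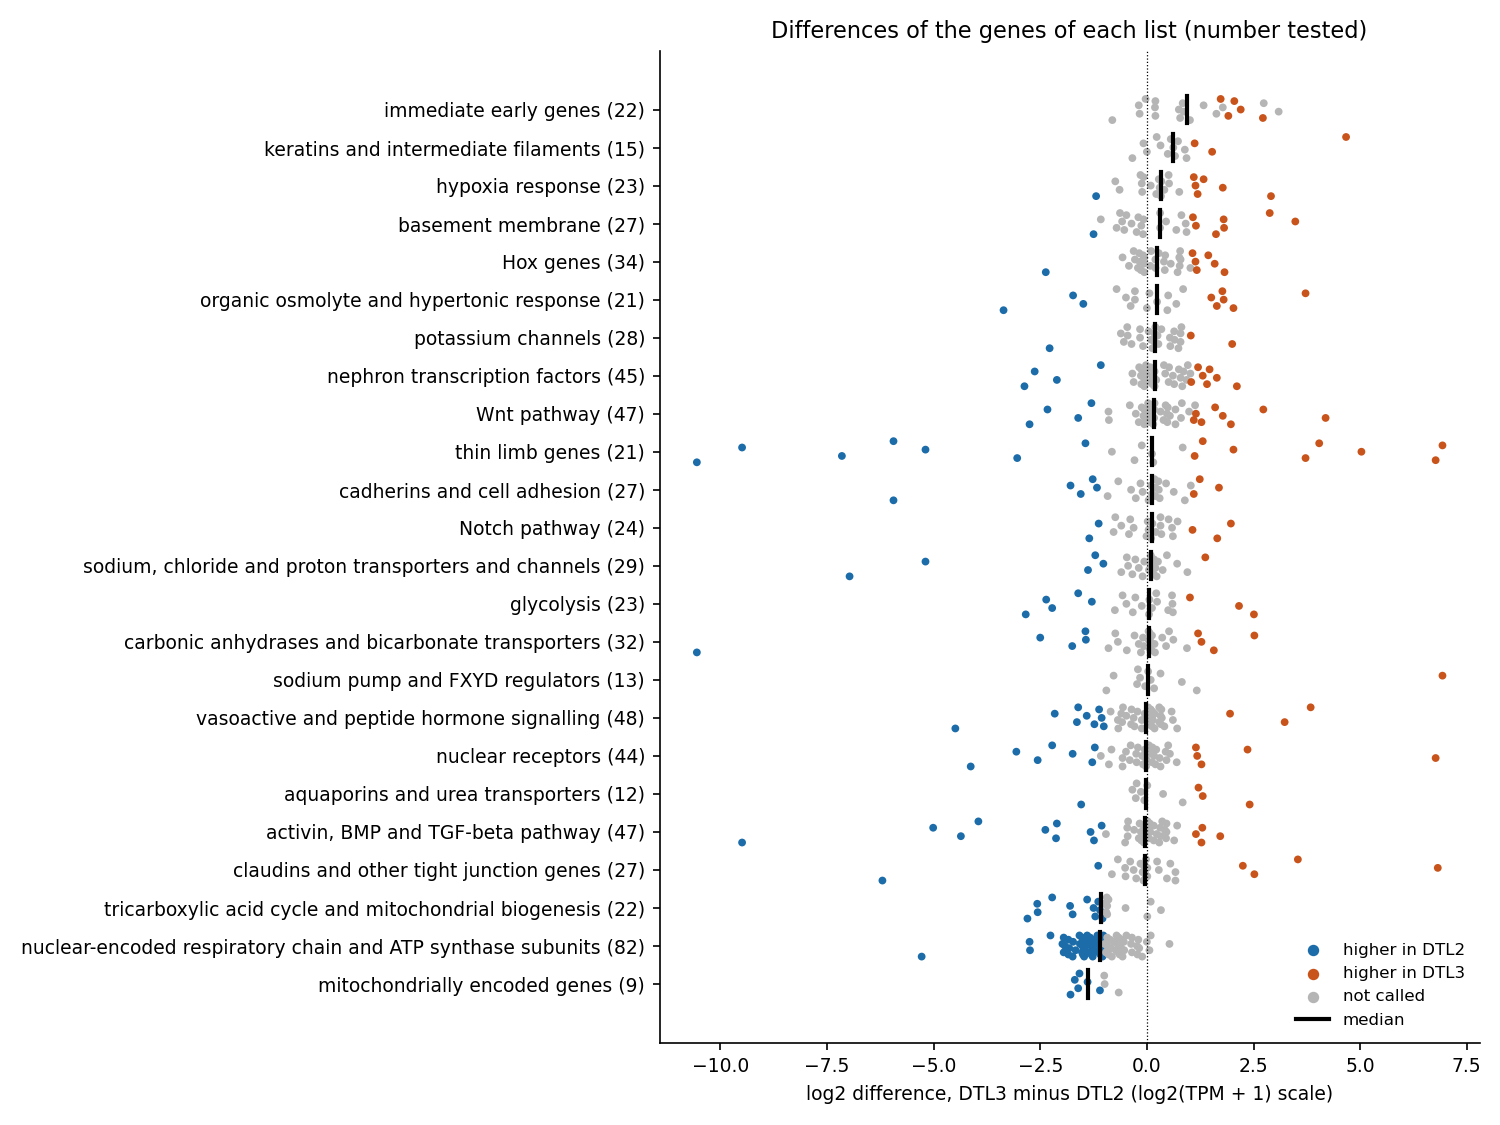
Log2 differences, DTL3 minus DTL2 (horizontal axis), of the tested genes of each list (rows, number of genes in parentheses). Each point is a gene, blue where called higher in DTL2, orange where called higher in DTL3 and grey where not called, and the black bar is the median of the list; the 3 mitochondrial lists, 2 of them added after the data had been seen, have medians of -1.07 to -1.39 and no orange point.

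Signalling by activins, bone morphogenetic proteins (BMP) and TGF-beta passes through receptor kinases to Smad proteins, and Id genes are classic BMP targets. Of 47 genes of these pathways, 10 were higher in DTL2 and 4 in DTL3. All genes tested gave 3.5% and 6.08%, and the DTL3 count is near its share. Beside Fst, the outer part had more transcript of the Id genes. Id3 was 573, 644 and 751 TPM in DTL2 and 34.1, 24.5, 32.2 and 40.3 TPM in DTL3, and Id4 was 208, 256 and 335 TPM in DTL2 and 6.07, 8.8, 6.95 and 8.01 TPM in DTL3. Id2 went from 452 ± 98.4 to 29.1 ± 8.89 TPM. The 3 differences were -4.36 (SE 0.33, adjusted p 3.39e-14), -5.01 (SE 0.25, adjusted p 4.26e-20) and -3.95 (SE 0.24, adjusted p 1.32e-17). Id1, the fourth member, was 88.8 ± 11.3 and 82.3 ± 20.4 TPM with overlap (log2 difference -0.13, SE 0.40, adjusted p 0.872). Bmp4, a ligand gene, and Smad7, an inhibitory Smad gene, were also higher in DTL2, at 39 ± 12.8 and 8.15 ± 3.28 TPM and at 21.2 ± 4.36 and 4.19 ± 1.61 TPM. The TGF-beta receptor genes Tgfbr2 and Tgfbr3 were higher in DTL3, at 29 ± 7.17 and 71.7 ± 5.73 TPM and at 94.1 ± 10.5 and 226 ± 35 TPM. Activin subunit genes, whose products follistatin binds, were low in both parts, Inhba at 2.79 ± 1.37 and 3.71 ± 2.2 TPM and Inhbb at 0.104 ± 0.0914 and 0.253 ± 0.272 TPM. The activin receptor gene Acvr2b was called higher in DTL3 (log2 difference 1.15, adjusted p 0.0472), but that call was lost without any of DTL2 mice 1 and 3 and DTL3 mice 1, 2 and 3 (adjusted p up to 0.219).

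In the Wnt pathway, in which secreted ligands act through Frizzled receptors, 8 of 47 genes were higher in DTL3 and 4 in DTL2 (6 and 4 after median ratio rescaling). Wnt7b, a ligand gene known for its role in forming the renal medulla, was 45.5, 61.6 and 75 TPM in DTL2 and 386, 400.3, 454 and 391 TPM in DTL3 (log2 difference 2.73, SE 0.31, adjusted p 4.13e-09). Nkd1, a feedback inhibitor gene induced by the pathway, was 0.77, 3.03 and 4.94 TPM in DTL2 and 71.3, 62.6, 67.7 and 72.1 TPM in DTL3 (log2 difference 4.19, SE 0.33, adjusted p 1.42e-13). Rnf43 and Znrf3, feedback ubiquitin ligase genes that remove Frizzled receptors, went from 21.1 ± 1.85 to 84.9 ± 4.18 TPM and from 6.28 ± 0.851 to 16.7 ± 0.95 TPM. Axin2, another feedback gene, rose from 1.54 ± 0.207 to 4.41 ± 0.962 TPM, a call that ended after either rescaling. The ligand gene Wnt5a and the receptor gene Fzd4 were higher in DTL2, at 37.8 ± 6.89 and 5.0 ± 2.4 TPM and at 99.5 ± 11.3 and 18.9 ± 3.2 TPM (log2 difference -2.33, adjusted p 1.38e-09).

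Of 24 Notch genes, 3 were higher in DTL3 and 2 in DTL2 by limma (the second count was 5 without DTL3 mouse 1 and 1 without DTL2 mouse 2, DTL3 mouse 2 or DTL3 mouse 3). Ligand genes moved in both directions. Jag1 fell from 27.5 ± 2.72 to 10.2 ± 2.0 TPM (log2 difference -1.35, adjusted p 8.74e-05), while Jag2 rose from 3.0 ± 1.15 to 10.9 ± 0.812 TPM and Dll1 from 3.12 ± 1.54 to 13.6 ± 2.56 TPM. The target gene Hes1 was 56.4 ± 11.9 and 65.9 ± 15.7 TPM with overlapping samples (log2 difference 0.21, adjusted p 0.787).

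**Figure D5:**
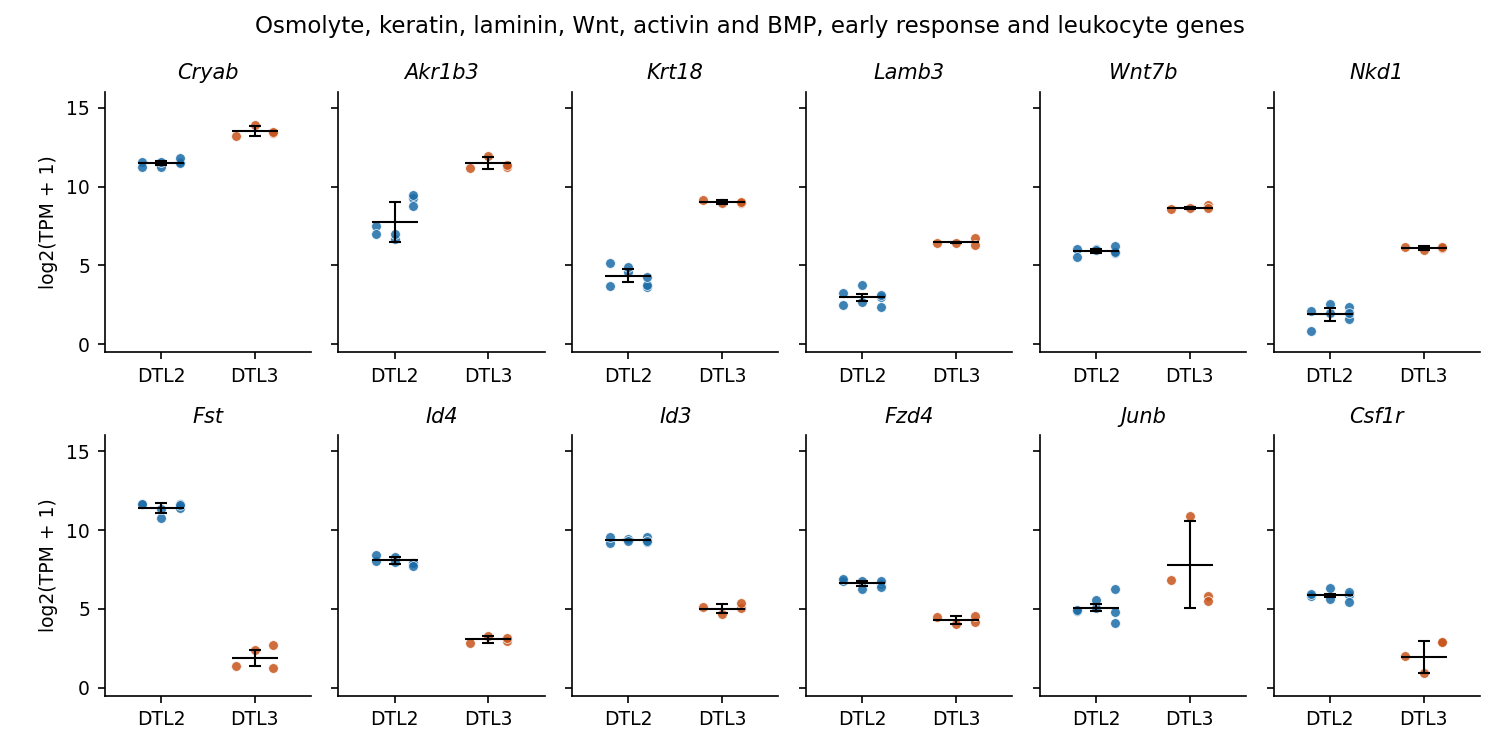
Abundance as log2(TPM + 1) (vertical axis) of osmolyte, keratin, laminin, Wnt, activin and BMP, early response and leukocyte genes. Points are samples by mouse, blue for DTL2 and orange for DTL3, with the mean and SD over 3 mice in black. Junb is highest in DTL3 mouse 2, with mouse 1 also above every DTL2 sample and mouse 3 within their range. In the other 11 panels all samples of DTL2 lie on one side of all samples of DTL3, and the mice of most called genes separate in this way.

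Transcription factor genes gave 7 calls higher in DTL3 and 4 higher in DTL2 among 45 of the nephron list. Tfcp2l1, a factor gene best known from collecting duct and distal tubule, was 45.2, 74.4 and 151 TPM in DTL2 and 9.95, 10.2, 9.24 and 8.1 TPM in DTL3 (log2 difference -2.87, SE 0.36, adjusted p 2.54e-08). Klf5, Ehf and Elf3, known from stratified and collecting duct epithelia, were higher in DTL3. Klf5 was 15.6 ± 4.85 and 67.6 ± 3.98 TPM, Ehf 117 ± 43.9 and 356 ± 80.2 TPM and Elf3 74.4 ± 11.7 and 198 ± 4.59 TPM. Pax2, a factor gene of kidney development, rose from 13.5 ± 2.65 to 38.8 ± 5.14 TPM (log2 difference 1.47, adjusted p 7.75e-06).

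Among 44 nuclear receptor genes, 7 were higher in DTL2 and 5 in DTL3 (3 in DTL3 without DTL2 mouse 3). Beside Esrra and Esrrg, DTL2 had Nr1h4, the bile acid receptor FXR, at 10.7, 22.7 and 47.4 TPM against 0, 0.33, 1.23 and 0.57 TPM in DTL3 (log2 difference -4.13, SE 0.34, adjusted p 6.47e-13). Esr2, estrogen receptor beta, was 14.6 ± 2.33 and 0.85 ± 0.292 TPM and Vdr, the vitamin D receptor, 10.1 ± 3.07 and 2.37 ± 1.16 TPM. After Nr2e3, the DTL3 calls included Nr4a2, an orphan receptor gene, at 1.52 ± 0.733 and 11.5 ± 5.03 TPM. Of 34 Hox genes, which give cells positional identity in development, 6 were higher in DTL3 and 1 in DTL2 (4 and 1 after median ratio rescaling). Hoxb2 was 32.4 ± 2.47 and 116 ± 5.94 TPM (log2 difference 1.82, adjusted p 4.55e-15) and Hoxb6 64.4 ± 4.28 and 145 ± 10.4 TPM (log2 difference 1.17, adjusted p 9.73e-10).

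Of 48 genes for vasoactive and peptide hormone signals, 9 were higher in DTL2 and 3 in DTL3. Over all genes tested the shares were 3.5% and 6.08%, and the DTL3 count is near its share. Of the prostaglandin receptor genes on the list Ptgfr and Ptger2 were called, in opposite directions, and Ptger1, Ptger3 and Ptger4 were not (log2 differences 0.61, 0.18 and 0.34). Ptgfr, the receptor gene for prostaglandin F2 alpha, was 38.1, 43.6 and 67.6 TPM in DTL2 and 0.32, 3.29, 0.45 and 0.80 TPM in DTL3 (log2 difference -4.49, SE 0.36, adjusted p 1.26e-13). Ptger2, the gene of the EP2 receptor for prostaglandin E2, was 0, 0.60 and 8.3 TPM in DTL2 and 47.5, 18.6, 36.4 and 26.6 TPM in DTL3 (log2 difference 3.84, SE 0.29, adjusted p 3.89e-14). Slco2a1, the prostaglandin transporter gene, rose from 13.5 ± 7.73 to 51.1 ± 21 TPM, and Ptgs1, the cyclooxygenase-1 gene, fell from 29.2 ± 9.75 to 10.5 ± 3.34 TPM. Entpd1, an enzyme gene that degrades extracellular ATP, was 19.7 ± 4.15 and 3.86 ± 2.24 TPM.

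Among structural genes of epithelia and their matrix, most calls were higher in the inner part, as were 63.5% of calls over all genes. Calls covered 6.08% of all genes tested toward DTL3 and 3.5% toward DTL2. Of 15 keratin and intermediate filament genes tested, 3 were higher in DTL3 and 0 in DTL2 by limma (8 and 0 at an unadjusted p under 0.05, which 22.5% of all genes passed toward DTL3). The keratin pair of simple epithelia led: Krt18 was 11.4, 18.5 and 35.2 TPM in DTL2 and 572, 488, 491 and 518 TPM in DTL3 (log2 difference 4.67, SE 0.38, adjusted p 3.39e-13), and Krt8 46.6 ± 10.1 and 134 ± 9.12 TPM (log2 difference 1.53, adjusted p 1.44e-07). The third, Krt80, lost its call without DTL2 mouse 1 (adjusted p 0.133) or DTL3 mouse 3 (log2 difference 0.92). Of 27 basement membrane genes, 7 were higher in DTL3 and 1 in DTL2, the last being Nid2, whose call ended without DTL3 mouse 2 (log2 difference -0.33) or DTL2 mouse 2, and the second count was 2 without DTL2 mouse 3. Lamb3 and Lama3, chains of the laminin of stratified epithelia, were 4.1, 7.03 and 12.6 TPM and 0.30, 1.07 and 3.09 TPM in DTL2. They were 84, 86, 106 and 76.9 TPM and 12.7, 14.8, 15.6 and 17.1 TPM in DTL3 (log2 differences 3.48 and 2.88). Col4a3, a collagen IV chain gene, and Agrn, agrin, went from 83.9 ± 18.9 to 289.6 ± 34.4 TPM and from 56.9 ± 8.57 to 176 ± 32.1 TPM.

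Of 27 cadherin and adhesion genes, 5 were higher in DTL2 and 3 in DTL3 (5 in DTL3 without DTL3 mouse 1). Cdh13, a GPI-anchored cadherin gene, was 272, 299.9 and 355 TPM in DTL2 and 3.76, 5.28, 2.97 and 3.68 TPM in DTL3 (log2 difference -5.94, SE 0.38, adjusted p 7.92e-17). Cdh1 and Cdh2, the epithelial and neural cadherin genes, were 219.6 ± 8.24 and 96.6 ± 11.9 TPM and 15.8 ± 1.89 and 3.8 ± 0.981 TPM. Cd24a, a surface glycoprotein gene, was higher in DTL3, at 302 ± 5.19 and 976 ± 57.1 TPM (log2 difference 1.69, adjusted p 1.5e-09). On the list of 21 thin limb genes, chosen with these data known, 8 were higher in DTL3 and 7 in DTL2. Those not yet named include Sptssb, a sphingolipid synthesis gene, which ranged over 0 to 2.94 TPM in DTL2 and over 17.6 to 49.2 TPM in DTL3, with 3846 ± 1211 TPM in ATL.

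Calls among early response genes, apart from Fosl2, depended on single mice. Of 22 tested, 5 were higher in DTL3 and 0 in DTL2 by limma, but without DTL3 mouse 2 the first count was 1, without DTL2 mouse 1 it was 3, without DTL3 mouse 1 it was 8 and without DTL3 mouse 3 it was 11. An unadjusted p under 0.05, which 22.5% of all genes passed toward DTL3, gave 12 and 1. Junb, a subunit gene of the AP-1 factor, was 16, 29 and 76.7 TPM in DTL2 and 114, 1922, 55.1 and 44.4 TPM in DTL3, so the single piece of mouse 2 stood far above the others, mouse 1 lay above every DTL2 sample and both pieces of mouse 3 lay within the DTL2 range. Its difference was 2.72 log2 units (adjusted p 0.00896), and 1.16 without DTL3 mouse 2 (adjusted p 0.277). Fos was 10.3, 2666, 1.53 and 0.91 TPM in DTL3 and did not pass (log2 difference 3.09, SE 1.48, adjusted p 0.143). Fosl2, another AP-1 gene, was 1.47, 3.66 and 5.24 TPM in DTL2 and 9.41, 20.3, 12.6 and 15.8 TPM in DTL3 (log2 difference 1.73, SE 0.24, adjusted p 2.54e-07).

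Transcripts of other cell types also moved between the parts. Of 13 leukocyte transcripts, 5 were higher in DTL2 and 0 in DTL3 by limma (3 and 0 without DTL2 mouse 2), with summed TPM of 104.8 to 509.2 in DTL2 and 32.3 to 42.5 in DTL3. Csf1r, the macrophage growth factor receptor gene, was 42.3, 57.5 and 78.8 TPM in DTL2 and 3.11, 0.89, 6.64 and 6.38 TPM in DTL3 (log2 difference -3.92, SE 0.50, adjusted p 6.12e-08). Cd74, the invariant chain of antigen presentation, was 17.6, 84.7 and 173 TPM in DTL2 and 5.58, 0.45, 0.74 and 1.02 TPM in DTL3 (log2 difference -4.97, SE 0.81, adjusted p 7.53e-06). The pan-leukocyte gene Ptprc was 4.85 ± 0.227 and 6.84 ± 4.26 TPM with overlap (log2 difference 0.32, adjusted p 0.712). The T cell gene Cd3e and the B cell gene Cd79a did not pass. Igkc, the immunoglobulin gene named earlier and not on this list, went the other way. It was 0 to 13.6 TPM in DTL2 and 405, 72.6, 175 and 217 TPM in DTL3. The 13 endothelial transcripts, the cells of the vasa recta that lie beside the limbs, summed to 1628 to 2848.6 TPM in DTL2 and 1045.8 to 2242.8 TPM in DTL3, and 2 were higher in DTL2 (1 without any of DTL2 mice 1, 2 and 3 and DTL3 mice 2 and 3) and 0 in DTL3 by limma. Plvap, of fenestrated endothelium, was 696, 944 and 1474 TPM in DTL2 and 1144, 403, 559.8 and 726 TPM in DTL3, and Cdh5, the defining endothelial cadherin, 5.55 ± 0.569 and 7.01 ± 0.705 TPM. Kdr, the VEGF receptor gene, was higher in DTL2 (log2 difference -1.89, adjusted p 0.00213). At an unadjusted p under 0.05 (31.1% of all genes, 8.63% higher in DTL2) the leukocyte list gave 7 higher in DTL2 and the endothelial list 3, both with 0 higher in DTL3. The part of these cells in the differences between DTL2 and DTL3 was not tested.

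Among other tubule segments, 3 of 15 proximal transcripts were higher in DTL2 and 0 in DTL3 by limma, with summed TPM of 34.5 to 1009.6 in DTL2 and 20.9 to 57.6 in DTL3. Kap, the most abundant of them, ranged over 9.01 to 852 TPM in DTL2 and over 0 to 30.6 TPM in DTL3, with 75375 ± 10622 TPM in PTS3, whereas Lrp2, the endocytic receptor megalin, was 1.18 ± 0.583 and 1.26 ± 0.265 TPM. Of 6 thick limb transcripts 1 was higher in DTL3, Umod, the uromodulin gene, at 1.28, 20.8 and 31 TPM in DTL2 and 253, 188, 309 and 349.7 TPM in DTL3 (log2 difference 3.89, SE 0.43, adjusted p 1.27e-09), and 0 in DTL2. The defining thick limb transporter gene Slc12a1 was 1.28 ± 1.11 and 0.927 ± 0.764 TPM, and the list summed to 37.3 to 133.6 and 300.7 to 449.7 TPM. Of 4 distal convoluted tubule transcripts 1 was higher in DTL3 (0 after quantile normalization) and 0 in DTL2, with summed TPM of 2.36 to 7.60 and 5.59 to 9.19. Of 5 urothelial and papillary surface transcripts tested, 3 were higher in DTL3 and 0 in DTL2 by limma, with summed TPM of 11.5 to 36.0 and 197.4 to 225.3. Upk3a was 0, 0 and 7.21 TPM in DTL2 and 97.1, 33.4, 56.3 and 55.3 TPM in DTL3 (log2 difference 5.03, SE 0.29, adjusted p 6.52e-18), Upk3b 17.5 ± 8.57 and 126 ± 24 TPM and Trp63, a basal cell factor gene, 4.71 ± 0.332 and 24.9 ± 2.98 TPM. Their partners Upk1a, Upk1b and Upk2 were 0.275, 0.16 and 0.30 TPM in DTL3 and the basal keratin gene Krt5 was listed at 0 in all DTL3 samples. Erythroid transcripts gave 0 of 6 calls in either direction by limma (1 higher in DTL3 without DTL3 mouse 1), with summed TPM of 0.14 to 2.93 and 0.58 to 2.68, and interstitial and smooth muscle transcripts gave 1 of 12 higher in DTL2 (0 without DTL2 mouse 1 or 2, or DTL3 mouse 1 or 2) and 0 in DTL3. At an unadjusted p under 0.05 (31.1% of all genes, 8.63% higher in DTL2 and 22.5% higher in DTL3) the proximal list gave 5 higher in DTL2 and 0 in DTL3, the interstitial list 1 and 0 and the ATL list 3 and 0. The same limit gave 0 higher in DTL2 and, in DTL3, 4 genes of the principal cell list, 3 of the IMCD list, 3 of the urothelial list and 1 each of the intercalated, erythroid, thick limb, distal convoluted tubule and short-loop lists, of which a single gene in so short a list is no result about its members.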

How the data were processed

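RNA-seq was deposited for microdissected segments of mouse kidney, and 93 samples from 53 mice in 15 groups were used; 3 single-cell samples were not analysed here. The deposited values are TPM, made by the authors for 54532 genes and summing to 999998.55 to 1000190.3 per sample. The submitters' processing notes name STAR 2.5.4a, RSEM 1.3.0, Cell Ranger 3.0.2 and Seurat without their roles, and a genome build or annotation is not given in the sources used here. Depth is unknown, since TPM keep no counts. Per the labels' protocols, poly(A) cDNA was amplified and libraries were made by tagmentation.

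Pieces of 1 mouse and segment were averaged as log2(TPM + 1). Genes at 1 TPM or more in 3 mice (33793) were fitted with limma 3.58.1 in R 4.3.3 (trend) on all 15 groups, and p-values were adjusted by Benjamini-Hochberg over all genes tested. A call needs an adjusted p under 0.05 and 1 log2 unit. All tests are two-sided except the one-sided intersection-union test for genes above every other group. An exact permutation test of 3 mice against 3 cannot go below 0.1, so none was used. On simulated data limma recovered 99% of 200 changes of 2 log2 units and called 27 other genes. The changed genes were drawn from those at 10 TPM or more in DTL2. Noise was normal, with the same spread of a gene in every group, and no shift in the detection of low genes was simulated. Recovery of low genes was therefore not tested. Biotypes came from the reference annotation for 54495 genes, and 100 symbols occur more than once. Named genes are the 15 with the largest difference in each direction among called genes reaching 20 TPM whose mice separate (clone, mitochondrial, ribosomal protein, histone and pseudogene names passed over), the 10 widest margins shared by both parts, and genes of the lists. The members and lists were chosen with earlier results of these data known. A PTS2 column whose name fits no title entered the PTS2 group unnumbered. Alternatives were other pseudocounts, filters and scalings, single pieces, only the 6 mice, each mouse left out and a replicate block. Pieces come from separate mice per segment, so p-values measure the spread between mice. In the main fit that spread is pooled over all 15 groups and is not that of the 6 DTL2 and DTL3 mice alone. The values of some genes that the naming rule takes are not reported here.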

Additional observations from a re-analysis of the deposited data

Results flagged for a closer look

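In 39 groups of 4 or 7 samples tested for a value standing apart, 5 were found, where chance gives about 1 in 20 for independent samples. Pieces of 1 mouse are not independent, so that rate is nominal only. In DTL2, Fst was 1708.15 TPM in 1 piece of mouse 2 against 2558.17 to 3271.12 TPM in the other samples, and Ppp1r1a was 117.49 TPM in the same piece against 256.49 to 451.65 TPM. Mir568 was listed at 0 in 1 piece of DTL2 mouse 1 against 110.91 to 579.06 TPM in the others. In DTL3, Fxyd4 was 1476.94 TPM in mouse 1 against 1826.17 to 1874.51 TPM, and Rasal1 was 183.03 TPM in mouse 2 against 120.41 to 129.02 TPM.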

How the results depend on the processing

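The 3237 genes that differed became 1737 when only the 6 mice of both parts were fitted, 1444 with a pseudocount of 5 and 2132 among protein-coding genes alone (an alternative chosen after seeing the data). The count was 4348 with a pseudocount of 0.1, 2593 after median ratio rescaling and 2664 after quantile normalization, and leaving out each mouse gave 3063 to 3663. Within the fit of the 6 mice, adding mouse number as a replicate block took the count from 1737 to 394. Same-numbered mice had deviations correlated at -0.033, -0.044 and -0.011, and mice of unlike number at -0.027 to 0.059. Whether such a correlation would reveal a shared animal was not tested, so it cannot decide whether the number pairs samples. Mice were counted as separate by the study's design description. The 23 genes above every other group in both parts were 10 with a pseudocount of 0.1, 15 after median ratio rescaling and 16 to 25 with a mouse left out. Of 258 called genes named or listed, 0 reversed direction in any alternative that gave them a value. Of these, 164 kept their call under every alternative other than the block and 93 with it as well, and of the 30 leading genes 30 and 25 did. Both sets were chosen as called in the same samples that the alternatives refit, so a kept direction or call is no added support. Fewer mice and fewer residual degrees of freedom enter the fit of the 6 mice, and the cause of the other changes was not tested. With depth unknown, no limit can be given for genes listed at 0.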
